A study of Mus musculus with 24 samples.

Results

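The 35 genes described here are 16 genes known for their response to low oxygen and 19 genes of glucose uptake and glycolysis. They were taken by symbol from a list among the 25746 genes of each count table. All 35 were found, and all 35 were among the 11885 genes abundant enough to be tested. Aldoa had 2 identifiers, of which the one with more counts was used. The cells were eosinophils of C57BL/6 mice, grown from bone marrow with stem cell factor and FLT3 ligand (100 ng/ml each) until day 4 and with interleukin-5 (IL-5, 10 ng/ml) thereafter. From day 13 all groups stayed overnight in IL-5. Wild-type cells received nothing further, granulocyte-macrophage colony-stimulating factor (GM-CSF, 20 ng/ml), interleukin-10 (IL-10, at a dose the labels do not give) or both cytokines. Cells labelled Csf2ra-/-, which should lack the alpha subunit of the receptor for GM-CSF, and cells labelled Irf5-/-, which should lack a transcription factor of innate immunity, were left untreated or given GM-CSF. Each of the 8 groups had 3 libraries, numbered here only to name them. The labels speak of triplicate wells and do not say whether the 3 came from separate animals or cultures, so a p-value covers no more than the spread among the libraries at hand.

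In cells with enough oxygen, prolyl hydroxylases of the EGLN family mark the alpha subunit of hypoxia-inducible factor (HIF), and the VHL protein sends it for destruction. When oxygen is scarce the subunit is spared, pairs with ARNT and binds promoters and enhancers at a short core sequence. Its targets shift cells from mitochondrial respiration to glycolysis, blunt mitochondrial function, and include EGLN genes that act as a brake. Neutrophils live mainly on glycolysis, while eosinophils also use mitochondrial respiration. Cytokines that signal through the common beta chain, such as IL-5 and GM-CSF, keep eosinophils alive.

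Library totals ranged from 6222979 to 18709153 counts. The members together took from 2.99% of the counts (Csf2ra-/- with GM-CSF, replicate 1) to 4.95% (untreated wild type, replicate 3). The labelled cell type was checked against eosinophil markers: the summed level of 10 markers lay between 70776 and 108803 CPM (counts scaled per 1e6 counts of a library, with TMM factors), and all 10 were detected in every group. The highest sum was that of untreated Csf2ra-/- replicate 1, one of the 2 shallowest libraries beside untreated replicate 1 of the cells labelled Irf5-/-. Csf2ra stood at 28.5 to 39.8 CPM in Csf2ra-/- libraries and at 41.7 to 83.8 CPM elsewhere. Irf5 went against its label, with levels of 1393 to 1998.5 CPM for the 6 libraries labelled Irf5-/- and of 28.3 to 94.3 CPM for the others. Every direction given below for those 6 libraries rests on that label.

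Among the glycolytic members, levels were high throughout. On a per-length scale (mean CPM over 24 libraries per kilobase of exon), Aldoa, the main aldolase, was highest at 2177.5, followed by the pyruvate kinase gene Pkm at 949.9, the lactate dehydrogenase gene Ldha at 883, the glucose-6-phosphate isomerase gene Gpi1 at 795 and Gapdh at 718. Of the 2 glucose transporters Slc2a3 (GLUT3) stood at 242 CPM per kilobase and Slc2a1 (GLUT1) at 140.1. The hexokinase genes Hk2 and Hk1 stood at 95.7 and 63.15, and the phosphofructokinase genes Pfkl and Pfkp at 53.7 and 45.9 on the same scale. The length used joins all annotated exons of a gene, so the order can depend on the annotation. Before division by 6675 and 13401 bases, Pfkl had a mean of 359 CPM and Pfkp of 615 CPM. Aldoc, at 75.3, was far below Aldoa. The lowest of the 19 were Pfkfb3 and Pfkfb4, which make the phosphofructokinase activator fructose 2,6-bisphosphate, at 11.8 and 9.35 CPM per kilobase. Several of these enzymes have processed pseudogenes, and the sources used here do not say how reads with more than 1 match were counted.

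Of the hypoxia response members, the protein-disulfide oxidase gene Ero1l was the most abundant at 663 CPM per kilobase. The oxygen sensor Egln3 stood at 291.5 and its relative Egln1 at 84.4. Bnip3 and Bnip3l, receptors for the removal of mitochondria, stood at 259.8 and 80.95, and Fam162a, another mitochondrial protein, at 249.7 on that scale. P4ha1, a collagen prolyl hydroxylase subunit, stood at 88.7 against 3.40 for its relative P4ha2, the lowest of all 35. The vascular growth factor gene Vegfa was at 47.0, the lipid droplet gene Hilpda at 78.1 and the stress gene Ndrg1 at 62.9 CPM per kilobase.

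The members did not vary alike, neither over all 24 libraries, which differ in genotype and treatment, nor between libraries of 1 group. P4ha2 ranged from 4.19 to 46.4 CPM over the 24 libraries, an 11.1-fold range, Hilpda from 28.4 to 147 CPM (5.18-fold), Ndrg1 from 139 to 715 CPM (5.13-fold) and Ankrd37, which encodes an ankyrin repeat protein, from 44.8 to 142 CPM (3.175-fold). Ero1l ranged from 1792 to 5546 CPM (3.095-fold). The housekeeping hexokinase Hk1, in contrast, kept within 474 to 618 CPM (1.30-fold), Ldha within 2395 to 3598 CPM (1.502-fold) and the lactate exporter gene Slc16a3 within 607 to 965 CPM (1.59-fold). The pooled SD between libraries of a group had a median of 0.404 log2 units over the 16 hypoxia response members and 0.164 over the 19 glycolytic ones, beside 0.198 over all tested genes. A range of at least 2-fold over the libraries was seen in 12 of 16 and 4 of 19 members respectively, and in 41.1% of all tested genes. The 4 glycolytic genes were Slc2a3 (2.795-fold), Slc2a1 (2.23-fold), Gpi1 (2.06-fold) and Pgam1 (2.04-fold). Inside single groups the ranges were smaller, at most 6.97-fold for P4ha2, 4.05-fold for Ndrg1, 3.78-fold for Hilpda and 1.25-fold for Hk1.

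The rest of the hypoxia response list fell between these ends. Vegfa ranged 2.85-fold over the libraries, Bnip3 2.82-fold, Higd1a, a stabiliser of respiratory complexes, 2.70-fold, Fam162a 2.62-fold, P4ha1 2.59-fold, Egln1 2.36-fold and Kdm3a 2.01-fold. Pdk1 (1.88-fold), Bnip3l (1.86-fold), Egln3 (1.72-fold) and Mxi1 (1.645-fold) were the 4 under 2-fold. Along glycolysis the ranges were 1.64-fold for Hk2, 1.48-fold for Pfkl, 1.89-fold for Pfkp, 1.83-fold for Aldoa, 1.85-fold for Aldoc and 1.47-fold for the triosephosphate isomerase gene Tpi1. Further down they were 1.81-fold for Gapdh, 1.55-fold for Pgk1, 1.56-fold for the enolase gene Eno1 and 1.62-fold for Pkm, and Pfkfb3 and Pfkfb4 ranged 1.497-fold and 1.555-fold.

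**Figure D1:**
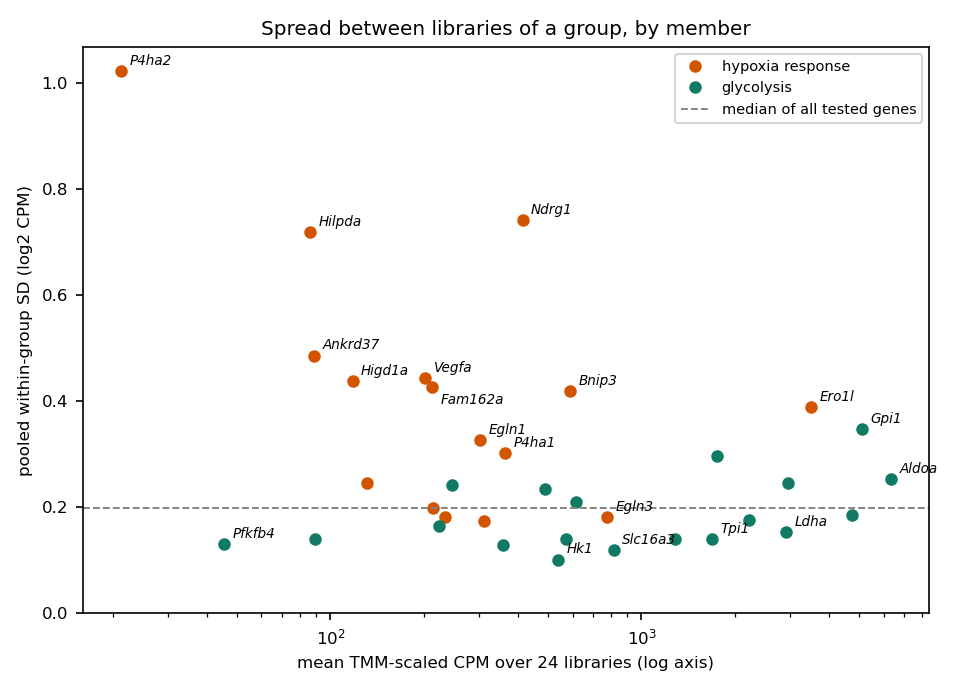
Spread of each member between libraries of the same group (vertical axis, pooled SD of log2 CPM over 8 groups of 3) against its mean level (horizontal axis, TMM-scaled CPM on a log axis). Hypoxia response members are orange and glycolytic members green, and the dashed line is the median of all tested genes, 0.198; P4ha2 lies highest at 1.02 and Hk1 lowest at 0.101.

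P4ha2 shows the pattern most plainly. In wild type it stood at 17.8, 35.9 and 35.3 CPM without cytokine, at 20.97, 7.399 and 35.7 CPM with GM-CSF, at 41.0, 42.75 and 29.8 CPM with IL-10 and at 30.6, 46.4 and 8.75 CPM with both, in the order of replicates 1 to 3. Untreated Csf2ra-/- cells had 4.19, 6.36 and 29.2 CPM, and those with GM-CSF had 4.375, 4.89 and 29.4 CPM. The cells labelled Irf5-/- had 5.92, 12.3 and 8.75 CPM when untreated, and GM-CSF-treated ones had 25.9, 14.1 and 11.3 CPM. Replicate 3 was far below the other libraries in wild type with both cytokines and far above them in both Csf2ra-/- groups. Replicate 1 was the highest in GM-CSF-treated cells labelled Irf5-/- and the lowest in untreated wild type.

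The same libraries stood apart for Ndrg1 and Hilpda. Ndrg1 was at 164.5 and 179.7 CPM in untreated Csf2ra-/- replicates 1 and 2 but at 585 CPM in replicate 3, and with GM-CSF at 139, 169 and 564 CPM. In wild type with both cytokines it was at 486, 715 and 182 CPM. For Hilpda these groups had 43.4, 32.8 and 124 CPM, 28.4, 30.6 and 107 CPM, and 98.98, 139 and 38.8 CPM. In all 3 genes Csf2ra-/- replicate 3 reached the range of wild type, while replicates 1 and 2 stayed below every untreated wild-type library.

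**Figure D2:**
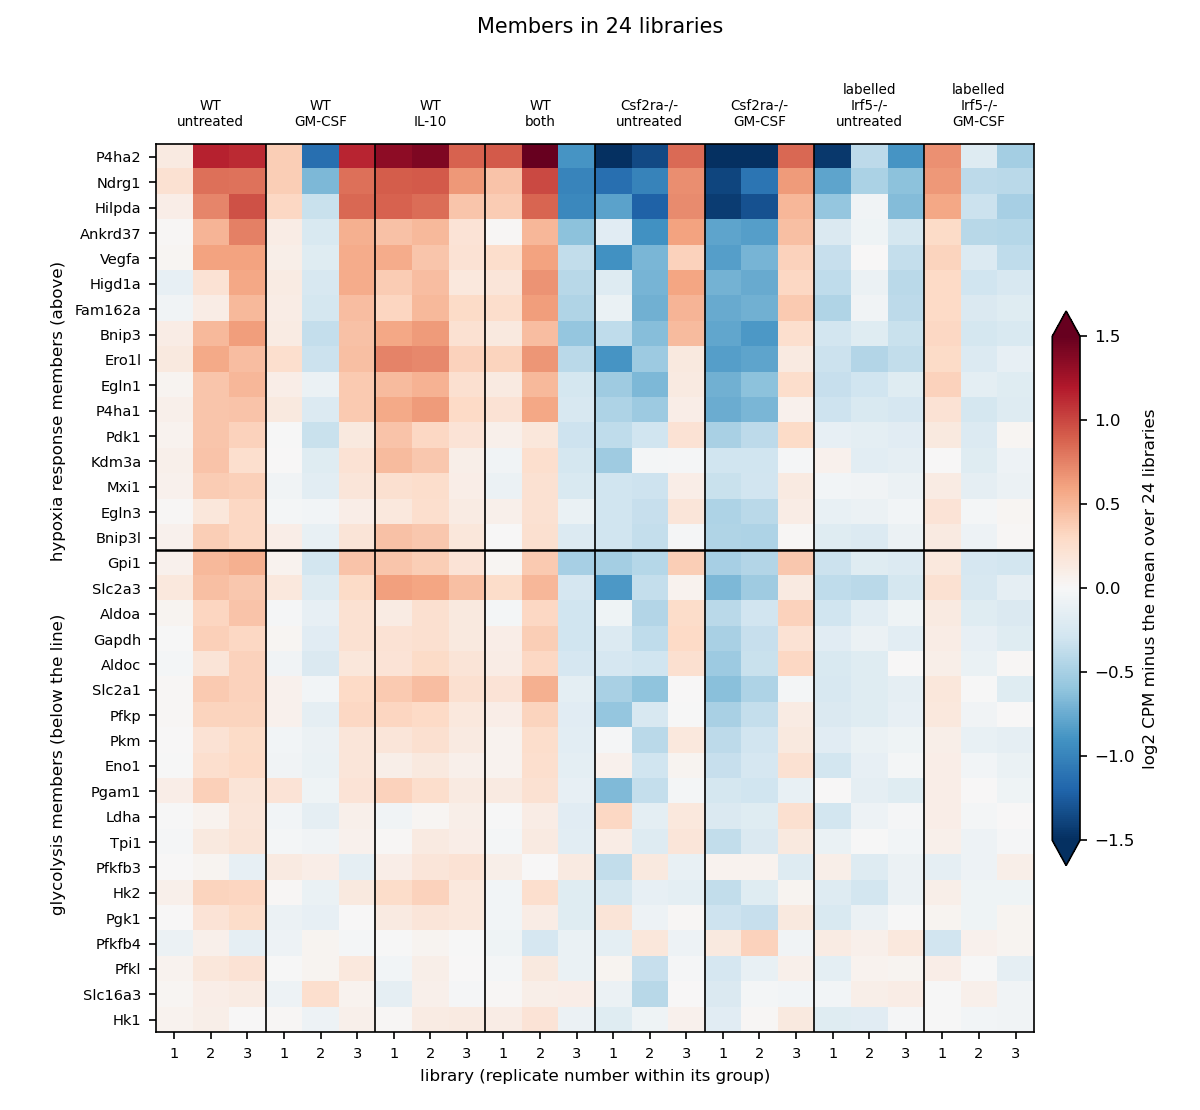
Level of the 35 members (rows) in 24 libraries (columns, replicates 1 to 3 of each group), as log2 CPM minus the member's mean over all libraries; the colour scale stops at 1.5 in either direction. Rows are sorted by within-group SD inside each list. In Csf2ra-/- replicate 3 the median hypoxia response member lay 0.28 (untreated) and 0.27 (GM-CSF) above its mean. The median glycolytic member there lay 0.04 and 0.14 above, and the columns of replicates 1 and 2 are mostly blue.

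Counted over all members, single libraries were the highest or lowest of their group for nearly the whole list. In wild type, untreated replicate 1 was the lowest of its 3 in 32 of 35 members, GM-CSF replicate 2 in 31 and replicate 3 of the group with both cytokines in 32. GM-CSF replicate 3 was the highest of its group in 32, and replicate 2 of the group with both cytokines in 32. Csf2ra-/- replicate 3 was the highest in 28 members untreated and in 32 with GM-CSF, and GM-CSF-treated replicate 1 of the cells labelled Irf5-/- was the highest in 31. The untreated libraries labelled Irf5-/- lay closer together, with replicate 1 the lowest in 20 members. Over all tested genes, a library was the highest of its group in 26.4% to 39.5% of genes and the lowest in 25.5% to 43.55%. The median member lay 0.35 log2 units above the group mean in untreated Csf2ra-/- replicate 3 and 0.37 above it with GM-CSF, and it fell by 0.29 in wild-type replicate 3 with both cytokines.

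Set against the 3 untreated wild-type libraries, 32 members were below all of them in wild-type GM-CSF replicate 2 and 32 in wild-type replicate 3 with both cytokines. The count was 31 and 33 in untreated Csf2ra-/- replicates 1 and 2 and 9 in replicate 3, and it was 33, 32 and 10 in the GM-CSF-treated Csf2ra-/- libraries. All 3 untreated libraries labelled Irf5-/- had such low values, in 33, 30 and 31 members, whereas with GM-CSF the count was 5 in replicate 1 and 32 and 29 in the others. Of all tested genes, 23.3% to 40.2% were below the 3 untreated wild-type libraries in each of the 21 other libraries. Libraries in which most members were low occurred in all 3 genotypes, and so did libraries in which they were not. In such bulk samples fewer cells of 1 state and less RNA per cell cannot be told apart.

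**Figure D3:**
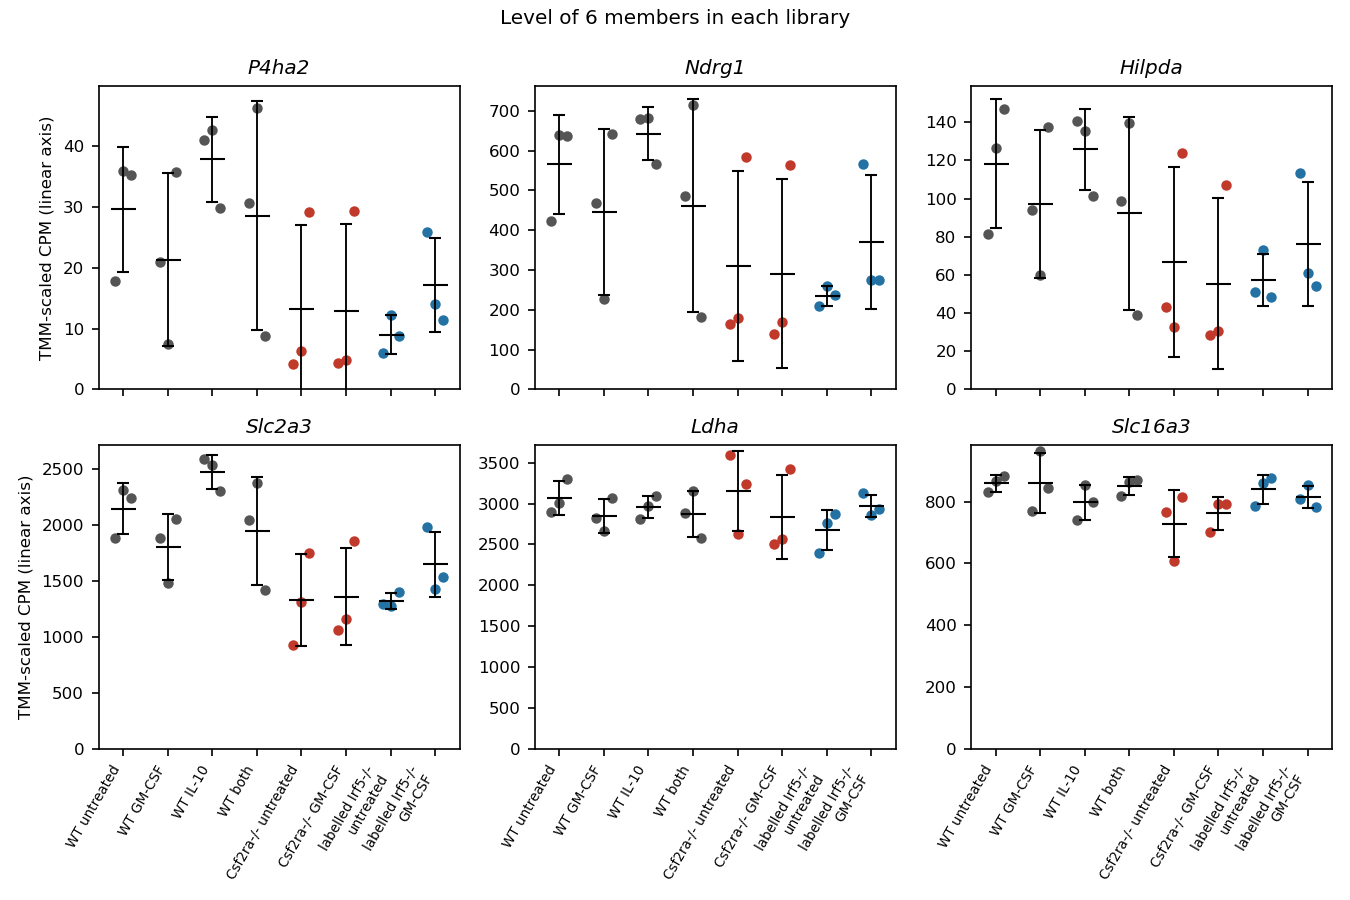
Level of 6 members in every library (points, TMM-scaled CPM, linear axes from 0) with the mean and SD of each group of 3 (bar and whiskers, cut at 0). P4ha2, Ndrg1 and Hilpda show 1 library far from the others in several groups, including Csf2ra-/- replicate 3, while Slc16a3 stays between 607 and 965 CPM.

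HIF binds the core ACGTG or GCGTG, and the promoters of the members were searched for both cores on both strands. RefSeq promoter windows (GRCm38.p6, from 250 bases before to 50 after a transcript start) were found for 32 of 35 members, Ero1l under the symbol Ero1a. For Bnip3l, Ndrg1 and Slc2a3 no window was used here. Either core was present in at least 1 window of 30 of the 32 genes (93.8%) and of 46.7% of all 27025 genes with a window. Since genes can have several windows, the share of windows was also counted, at 79.2% of 48 member windows and 43.8% of all 32851 windows. The stricter core ACGTG was found in 24 of 32 members (75.0%) and in 21.8% of all genes. These backgrounds were not limited to the genes tested here or matched to the members in base composition, so the shares are description only. All 14 hypoxia response members with a window held a core, and so did 16 of 18 glycolytic members, Gpi1 and Tpi1 being the others.

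The stretches below lie before the RefSeq start, outside annotated exons, and are shown because 3 belong to members of wide spread (P4ha2, Ankrd37, Bnip3) and 3 to members of narrow spread (Hk2, Pgk1, Ldha). They were chosen after the values were seen. Each is written 5′ to 3′ on the gene's strand, with every match to ACGTG or GCGTG, or to their reverse complements CACGT and CACGC, in capitals. CACGTG and CACGCGTG are matches on both strands and count as 2.
P4ha2, chr11:54100674-54100923, plus strand: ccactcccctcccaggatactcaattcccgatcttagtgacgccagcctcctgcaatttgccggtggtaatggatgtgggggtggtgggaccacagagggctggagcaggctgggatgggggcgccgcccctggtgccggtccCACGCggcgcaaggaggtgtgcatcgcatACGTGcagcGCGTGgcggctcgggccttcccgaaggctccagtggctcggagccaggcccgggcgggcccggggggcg
Ankrd37, chr8:45999868-46000100, minus strand: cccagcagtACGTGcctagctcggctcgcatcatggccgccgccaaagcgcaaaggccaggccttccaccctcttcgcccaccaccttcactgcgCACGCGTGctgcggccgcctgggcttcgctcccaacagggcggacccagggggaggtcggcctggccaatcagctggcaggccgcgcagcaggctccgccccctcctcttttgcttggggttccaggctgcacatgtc
Bnip3, chr7:138909520-138909756, minus strand: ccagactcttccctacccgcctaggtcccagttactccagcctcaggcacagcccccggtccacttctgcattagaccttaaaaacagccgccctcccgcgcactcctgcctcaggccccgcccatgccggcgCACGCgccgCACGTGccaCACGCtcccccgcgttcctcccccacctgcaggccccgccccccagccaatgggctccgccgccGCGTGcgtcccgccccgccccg
Hk2, chr6:82774455-82774704, minus strand: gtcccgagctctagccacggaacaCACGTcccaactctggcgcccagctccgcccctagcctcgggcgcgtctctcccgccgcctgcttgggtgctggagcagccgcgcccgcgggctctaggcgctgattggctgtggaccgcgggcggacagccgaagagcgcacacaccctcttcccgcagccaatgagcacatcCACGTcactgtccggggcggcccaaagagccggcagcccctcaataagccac
Pgk1, chrX:106186850-106187099, plus strand: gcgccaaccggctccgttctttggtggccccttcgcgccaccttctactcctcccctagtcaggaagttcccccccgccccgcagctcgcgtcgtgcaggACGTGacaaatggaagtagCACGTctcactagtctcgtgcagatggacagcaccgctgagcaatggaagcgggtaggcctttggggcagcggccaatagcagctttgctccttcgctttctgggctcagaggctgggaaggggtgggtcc
Ldha, chr7:46845554-46845803, plus strand: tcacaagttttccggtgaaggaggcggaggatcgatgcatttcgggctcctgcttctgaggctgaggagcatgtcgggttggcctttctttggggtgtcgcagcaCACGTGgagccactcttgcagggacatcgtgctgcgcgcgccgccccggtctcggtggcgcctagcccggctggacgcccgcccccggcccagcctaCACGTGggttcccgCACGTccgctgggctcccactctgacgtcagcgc

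P4ha2 and Ankrd37 had 3 matches each in these stretches, and Bnip3 and Ldha had 5 each. Hk2 and Pgk1 had 2 each, both of the ACGTG form. Ldha had as many matches as Bnip3 but a within-group SD of 0.153 against 0.419 log2 units. Because the 6 were chosen for their spread, they cannot show whether number of matches and spread go together. A match is a stretch of letters and was not measured as a binding site.

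The comparison of untreated Csf2ra-/- with untreated wild-type cells was the only one in which a member passed the test. These 2 groups also differed in Y-linked level and in markers of other cell types, as given below. Of the members called, 5 were of glucose uptake and glycolysis and 1, Bnip3l, of mitophagy, and all were lower. Log2 fold changes were below 0 in 33 of 35 members, with a median of -0.43 against 0.00 for all tested genes. By edgeR's quasi-likelihood test with Benjamini-Hochberg (BH) adjustment over all 11885 genes, 6 members were lower and 0 higher at an adjusted p under 0.05, where 10.8% of all tested genes were called, 5.52% higher and 5.32% lower. The members called were 5 of the 19 glycolytic genes and 1 of the 16 hypoxia response genes.

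Both glucose transporters were among them. Slc2a3 was at 1884.5, 2317 and 2239.9 CPM in wild type and at 927, 1314 and 1749 CPM in Csf2ra-/-, a log2 fold change of -0.69 ± 0.22 (SE, n = 3 per group, adjusted p = 0.0462 by edgeR). Slc2a1 was at 483, 631 and 611 CPM in wild type and at 342, 316 and 479 CPM in Csf2ra-/- (-0.60 ± 0.18, edgeR adjusted p = 0.0335). For neither gene did the 3 libraries of one group overlap those of the other, although Csf2ra-/- replicate 3 came close to the lowest wild-type library for Slc2a1.

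Hk2, the hexokinase that commits glucose to glycolysis in many activated cells, was at 597, 714.5 and 709 CPM in wild type and at 471, 520.4 and 512 CPM in Csf2ra-/- (-0.43 ± 0.12, edgeR adjusted p = 0.0228). Pfkp, a phosphofructokinase, was at 613, 764 and 761 CPM against 405, 511 and 602 CPM (-0.49 ± 0.16, edgeR adjusted p = 0.0497). The phosphoglycerate mutase gene Pgam1 was at 236, 284 and 253 CPM against 139, 173 and 217 CPM (-0.54 ± 0.13, edgeR adjusted p = 0.0118). Bnip3l was at 321, 397 and 381 CPM against 250.8, 239.6 and 303 CPM (-0.47 ± 0.14, edgeR adjusted p = 0.0331). In each of these genes the lowest wild-type library lay above the highest Csf2ra-/- library, and that lowest library was always untreated wild-type replicate 1.

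The members with the largest fold changes did not pass the test. P4ha2 was at -1.099 (adjusted p = 0.367), Ndrg1 at -0.87 (0.343), Hilpda at -0.82 (0.359) and Ero1l at -0.76 (0.0919), all by edgeR. Csf2ra-/- replicate 3 lay inside the wild-type range in each of these 4, just above the lowest wild-type library for Ero1l (3682 against 3678 CPM). Mxi1, a MYC antagonist, was just outside the threshold at -0.43 (edgeR adjusted p = 0.0513). Ldha (0.04) and Pfkfb4 (0.04) were the 2 members above 0. Libraries of the 2 groups did not overlap in 9 members, all lower in Csf2ra-/-, the 6 called and Kdm3a, Pfkl and Slc16a3, where 10.9% of all tested genes were lower and 10.3% higher without overlap.

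These 6 calls depended on single libraries. No member was called without Csf2ra-/- replicate 1 or without wild-type replicate 2, 1 was called without wild-type replicate 3, 3 without Csf2ra-/- replicate 2 and 15 without Csf2ra-/- replicate 3. With only these 6 libraries in the fit edgeR called 0, and with the level of Y-linked genes as a covariate it called 1, Pgam1.

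With GM-CSF added to both genotypes, the same members lay lower in Csf2ra-/- but none passed the test. The median log2 fold change was -0.22 (-0.45 for the hypoxia response members and -0.16 for the glycolytic ones), and 34 of 35 members were below 0. Pgam1 was at -0.34 and Slc2a1 at -0.46 (adjusted p = 0.19 for both, edgeR), and P4ha1 at -0.54 (adjusted p = 0.252). edgeR, DESeq2 and limma-voom each called 0 members, 4 had an unadjusted p under 0.05, and edgeR called 3.79% of all tested genes. Without Csf2ra-/- GM-CSF replicate 3 edgeR called 2 and the median was -0.44, and without replicate 1 of that group it was -0.13. Pgam1 was the 1 member whose libraries did not overlap, at 254, 211 and 254 CPM in wild type and 184, 179.4 and 205 CPM in Csf2ra-/-, where 10.1% of all tested genes were lower and 8.07% higher without overlap.

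Untreated cells labelled Irf5-/- had low and even levels of the members. Against untreated wild type 34 of 35 members had log2 fold changes below 0, with a median of -0.41 (-0.59 for the hypoxia response members and -0.31 for the glycolytic ones), and in 28 members all 3 libraries lay below all 3 of wild type, where 14.6% of all tested genes did so. Pfkfb4 alone was higher without overlap, at 49.6, 48.0 and 50.8 CPM against 42.7, 47.9 and 41.3 CPM, where 11.5% of tested genes were higher without overlap. The fit over all libraries called 0 members, and so did DESeq2 and limma-voom, while 18 had an unadjusted p under 0.05 by edgeR. Only 0.0337% of all tested genes were called there.

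Among the largest differences, P4ha2 was at -1.67 (adjusted p = 0.36), Ndrg1 at -1.27 (adjusted p = 0.344) and Hilpda at -1.03 (adjusted p = 0.407), all by edgeR. Ndrg1 was at 423, 638 and 636 CPM in wild type and at 209, 260.1 and 236 CPM in the libraries labelled Irf5-/-. Gpi1 was at 5191, 6979 and 7218 CPM against 3970.0, 4378 and 4331 CPM (-0.61, edgeR adjusted p = 0.315), and Slc2a3 at 1291, 1273 and 1403 CPM in these libraries (-0.70, edgeR adjusted p = 0.285). Both genes were lower in each of the 3 libraries than in any of untreated wild type. Slc16a3 and Pfkfb3 were at -0.03 and -0.04. With only the 6 libraries compared in the fit, edgeR called 16 members, all lower, and 562 of 11344 genes.

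With GM-CSF the difference between the cells labelled Irf5-/- and wild type had a median of -0.10, with 29 members below 0. Without wild-type GM-CSF replicate 3 the median was 0.02, with 11 below 0, and without replicate 2 it was -0.18. edgeR, DESeq2 and limma-voom called 0 members, 0 had an unadjusted p under 0.05, 0 were without overlap in either direction, and edgeR called 0.0337% of all tested genes. Of all tested genes 3.25% were higher and 3.4% lower without overlap.

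**Figure D4:**
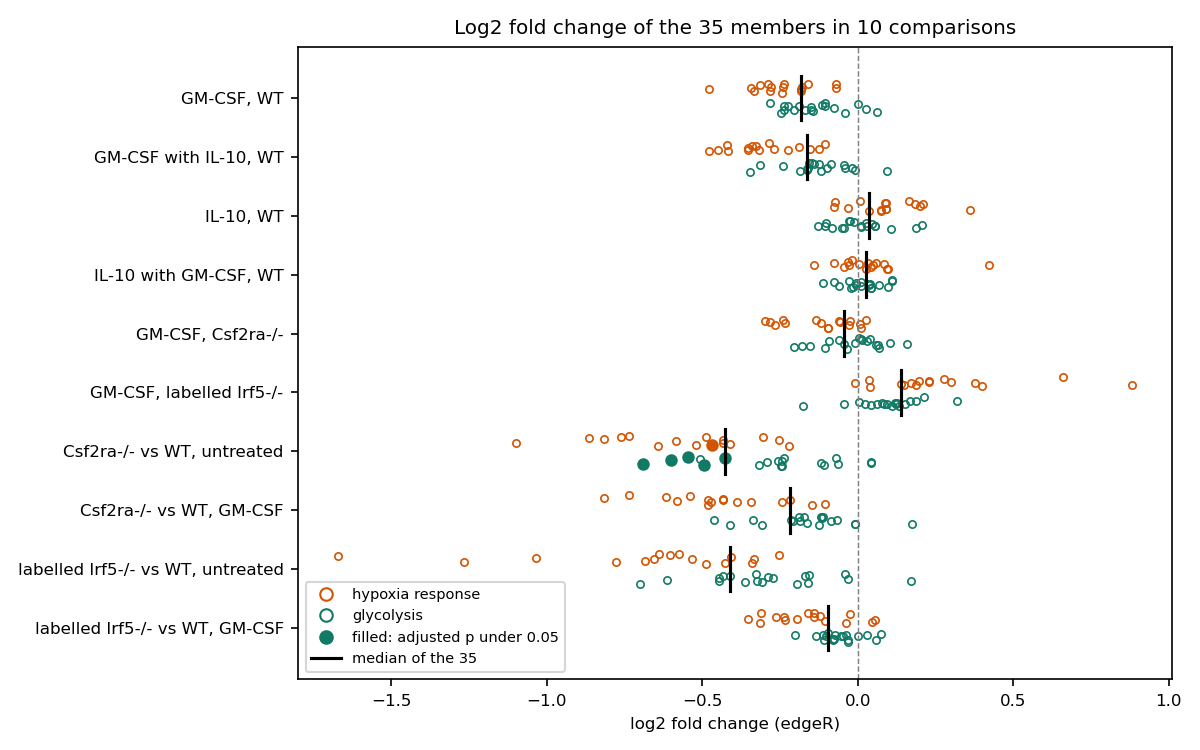
Log2 fold change of each member in 10 comparisons (points; orange hypoxia response, green glycolysis, filled where the adjusted p by edgeR is under 0.05), with the median of the 35 members as a black bar. Filled points occur only for untreated Csf2ra-/- against wild type, and the medians of both untreated genotype comparisons, -0.43 and -0.41, lie farthest from 0.

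GM-CSF in wild-type cells left the members without a call. The median log2 fold change was -0.18, 32 of 35 members were below 0, and the range ran from -0.48 to 0.06. The median was -0.09 without GM-CSF replicate 2 and -0.30 without GM-CSF replicate 3. Pgk1, which makes the first ATP of glycolysis, had 1279, 1469 and 1546 CPM without GM-CSF and 1198, 1165.5 and 1281 CPM with it (-0.24, edgeR adjusted p = 0.807), and the libraries overlapped. Pdk1, the kinase that closes pyruvate dehydrogenase, was at -0.33 (adjusted p = 0.848). edgeR, DESeq2 and limma-voom called 0 members, 0 had an unadjusted p under 0.05, and edgeR called 0.555% of all tested genes. No member was without overlap, where 6.9% of tested genes were higher and 5.92% lower.

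In the presence of IL-10, GM-CSF gave a median of -0.16 with 34 of 35 members below 0. It was -0.36 without replicate 2 of the group with both cytokines and -0.07 without its replicate 3. edgeR, DESeq2 and limma-voom called 0 members, where edgeR called 0.858% of all tested genes, and 3 had an unadjusted p under 0.05, Bnip3l at -0.32, Kdm3a at -0.34 and Hk2 at -0.24 (edgeR adjusted p = 0.447, 0.466 and 0.514). Kdm3a encodes a histone demethylase. In Pdk1, Pfkfb4 and Pgk1 all libraries with both cytokines lay below those with IL-10 alone, where 8.05% of tested genes did (9.24% were higher without overlap). Pdk1 was at 172, 159.8 and 149 CPM with IL-10 and at 135, 145 and 104 CPM with both. The test of the difference between the GM-CSF effects with and without IL-10 gave no call: edgeR, DESeq2 and limma-voom called 0 members, 0 had an unadjusted p under 0.05, and edgeR called 0% of all tested genes.

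Wild type with IL-10 alone held the highest mean of most members, by small margins. The mean was highest in wild type with IL-10 for 22 of 35 members and in untreated wild type for 10, and lowest in GM-CSF-treated Csf2ra-/- cells for 16, in untreated cells labelled Irf5-/- for 10 and in untreated Csf2ra-/- cells for 8. Against untreated wild type the median log2 fold change with IL-10 was 0.04, with 23 members above 0, but without untreated wild-type replicate 1 it was -0.06, with 25 members below 0. Ero1l had 3678, 4899 and 4553 CPM without it and 5546, 5440.5 and 4201.5 CPM with IL-10 (0.21, edgeR adjusted p = 0.999). Both groups overlapped in all members but Pfkfb3, with 89.1, 91.1 and 81.2 CPM in untreated cells and 94.5, 100.3 and 103 CPM in IL-10-treated ones, where 7.34% of tested genes were higher and 7.72% lower without overlap. With GM-CSF present the median for IL-10 was 0.03, but -0.13 (33 members below 0) without replicate 2 of the group with both cytokines and 0.14 without its replicate 3. No member was without overlap, where 3.47% of tested genes were higher and 3.14% lower. In each IL-10 comparison edgeR, DESeq2 and limma-voom called 0 members, 0 had an unadjusted p under 0.05, and edgeR called 0.0505% of all tested genes.

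In Csf2ra-/- cells GM-CSF gave a median of -0.05, with 13 members above 0. The sign turned on single libraries: the median was 0.14, with 3 members below 0, without untreated replicate 3 and -0.30, with 31 below 0, without GM-CSF replicate 3. No member was without overlap, where 1.92% of tested genes were higher and 2.0% lower. In the cells labelled Irf5-/- the median was 0.14 and 32 members were above 0, while without GM-CSF replicate 1 it was 0.07, with 12 below 0. There 8 members were higher without overlap (Bnip3l, Egln1, Egln3, Ero1l, Hk2, Ndrg1, Pfkp and Slc2a3), where 8.72% of tested genes were, and Pfkfb4 was lower, where 7.19% were. Ndrg1 had 209, 260.1 and 236 CPM without GM-CSF and 565, 274 and 274 CPM with it, so that replicate 1 carried most of the difference. In each of the 2 genotypes edgeR, DESeq2 and limma-voom called 0 members and 0 had an unadjusted p under 0.05, and edgeR called 0% of tested genes in Csf2ra-/- and 0.353% in the cells labelled Irf5-/-.

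The test of the difference between the GM-CSF effects of 2 genotypes called no member either. For Csf2ra-/- minus wild type the median was 0.13, but -0.11, with 26 members below 0, without Csf2ra-/- GM-CSF replicate 3 and 0.31 without untreated replicate 3. In that test 0 members had an unadjusted p under 0.05, with 0.0589% of all tested genes called by edgeR. For the cells labelled Irf5-/- minus wild type the median was 0.34, with 32 members above 0 and an unadjusted p under 0.05 for 2, Hk2 at 0.39 and Pgk1 at 0.35 (edgeR adjusted p = 0.986 for both), and 0% of all tested genes were called. DESeq2 and limma-voom also called 0 members in both. These differences share the wild-type libraries.

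Of 11 tested upstream genes of the pathway edgeR called 1, a share near the 10.8% of all tested genes called in untreated Csf2ra-/- against wild type. Hif1a, the oxygen-regulated subunit, was at 153, 189 and 159 CPM in untreated wild type and at 121, 144 and 114 CPM in untreated Csf2ra-/- cells, and fell by 0.40 on the log2 scale (edgeR adjusted p = 0.0425). The groups did not overlap, and the call was lost without Csf2ra-/- replicate 1 (edgeR adjusted p = 0.166), Csf2ra-/- replicate 3 (0.108), wild-type replicate 2 (0.242) or wild-type replicate 3 (0.082). It was also lost with no low-count filter (adjusted p = 0.0646), with the Y-linked covariate (0.0788), with only the groups compared (0.262) and without the 2 shallowest libraries (0.174). Csf2ra-/- replicate 3, high for most members, had the lowest Hif1a of these 6 libraries. Its partner Arnt was at -0.35 and the ubiquitin ligase gene Vhl at -0.34 in that comparison, and neither passed the test. Hif1an (-0.40), which hydroxylates the HIF transactivation domain, and the prolyl hydroxylase Egln2 (0.02) did not pass it either. Epas1, the HIF2 alpha gene, was at 0.473 to 1.89 CPM in all libraries. The median of the 11 was -0.33, and DESeq2 called 2 lower and 1 higher. Cited2, a competitor for the HIF coactivator, was the 1 gene of it called elsewhere. With both cytokines it was at 399.6, 335 and 418 CPM against 226, 272 and 288 CPM with IL-10 alone, and it rose by 0.55 (edgeR adjusted p = 0.0361).

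Of 31 other hypoxia targets tested, 5 were lower and 0 higher in untreated Csf2ra-/- cells, with a median of -0.39, where 5.32% of all tested genes were lower. Kdm6b, a histone demethylase, was at 286, 333 and 310.5 CPM in wild type and at 156.5, 203 and 249 CPM in Csf2ra-/- (-0.61, edgeR adjusted p = 0.0116), and the heme oxygenase gene Hmox1 was at 264, 383 and 400.1 CPM against 215, 169.6 and 264 CPM (-0.69, adjusted p = 0.0272). Zfp292 (-0.64, adjusted p = 0.0221) and Bhlhe41, a clock and hypoxia repressor at 2.29, 1.89 and 1.87 CPM against 0.740, 0.0589 and 0.591 CPM (adjusted p = 0.0121), were also lower. Without Csf2ra-/- replicate 1 the count was 1, without wild-type replicate 2 it was 1, without wild-type replicate 3 it was 3, and without Csf2ra-/- replicate 3 it was 14. It was 3 with the Y-linked covariate and 0 with only the groups compared.

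Of 24 genes of the mitochondrial respiratory chain 6 were higher and 0 lower in untreated Csf2ra-/- cells, with a median of 0.27, where 5.52% of all tested genes were higher. The complex IV gene Ndufa4 was at 0.55 (edgeR adjusted p = 0.00229) and the complex I gene Ndufa1 at 0.69 (adjusted p = 0.00271). Cytochrome c (Cycs) was at 0.71 (edgeR adjusted p = 0.00654) and Cox7a2 at 0.51 (adjusted p = 0.0172). Ndufa1 was at 56.7, 40.4 and 48.8 CPM in wild type and at 100.0, 64.0 and 72.9 CPM in Csf2ra-/-. Replicate 1 of Csf2ra-/- had the highest value. Without it 3 of 24 were called, without wild-type replicate 2 it was 2, and without Csf2ra-/- replicate 2 it was 17, while with only the groups compared it was 0. Of 26 pyruvate and citrate cycle genes Sdhc and Idh3a were higher, and of 7 pentose phosphate genes Rpia, beside those 5.52% of all tested genes. Neither list had a call with limma-voom, with the Y-linked covariate, with only the groups compared or without Csf2ra-/- replicate 1. Of 11 other glycolytic genes 0 were called by edgeR, of which 1 had an unadjusted p under 0.05, and DESeq2 and limma-voom called 0.

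Several other measures moved with the libraries in which the members were high or low. The summed level of the Y-linked genes Ddx3y, Eif2s3y, Kdm5d and Uty split every wild-type group, with libraries either at 174 to 186 CPM or at 45.8 to 59.9 CPM. In wild type, 33, 32, 29 and 33 of the 35 members were lower in the libraries with the high Y-linked level, in the groups untreated, with GM-CSF, with IL-10 and with both, and the median differences were -0.30, -0.30, -0.16 and -0.38 log2 units. About as many tested genes lay above as below, 49.3% to 51.1% being lower. The Csf2ra-/- libraries were all at 152 to 184 CPM, replicate 3 included. In the libraries labelled Irf5-/- 28 members were lower at the high level untreated and 3 with GM-CSF. Their replicates 1 to 3 were at 178.9, 12.2 and 39.2 CPM untreated and at 165.4, 13.4 and 44.2 CPM with GM-CSF. The split was noticed in the data, and its part in the results was not tested beyond the covariate fit.

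**Figure D5:**
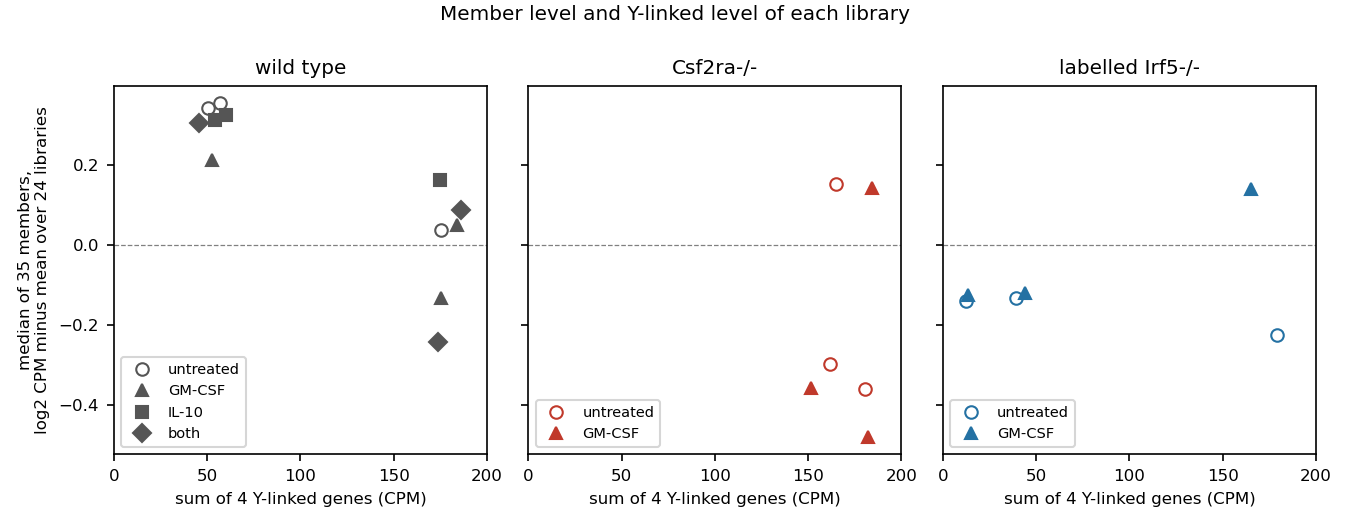
Median level of the 35 members in each library (vertical axis, log2 CPM minus the mean over 24 libraries) against the summed level of 4 Y-linked genes (horizontal axis, CPM), by genotype and treatment. In wild type the 6 libraries under 60 CPM lie at 0.21 or higher and the 6 over 170 CPM lie lower, while in Csf2ra-/- all libraries are over 150 CPM and replicate 3 of each group is above 0.

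Libraries were also compared on the same side of a split at 100 CPM of the Y-linked genes, over it (high) or under it (low). Untreated Csf2ra-/- libraries had a median member difference of -0.21 from the 1 high wild-type library, with 30 of 35 members lower. With GM-CSF the difference from 2 high wild-type libraries was -0.18, with 32 lower. For the untreated libraries labelled Irf5-/- the differences were -0.25 at the high level and -0.49 at the low level, with 33 and 34 members lower. With GM-CSF they were 0.21 and -0.34, of opposite sign. At the low level the libraries labelled Irf5-/- all lay below the 45.8 to 59.9 CPM of wild type, so their Y-linked levels were not matched. GM-CSF in wild type gave -0.08 at either level. The other wild-type comparisons differed in sign between the high and the low level: -0.27 and 0.03 for GM-CSF with IL-10 present, 0.14 and -0.02 for IL-10, and -0.03 and 0.08 for IL-10 with GM-CSF present. For GM-CSF in the cells labelled Irf5-/- they were 0.37 and 0.03.

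Genes of the stress response showed the same libraries. Ddit3 (CHOP) was at 27, 22.1 and 77.85 CPM in untreated Csf2ra-/- cells, 22.6, 22.8 and 79.1 CPM with GM-CSF, 69.5, 109.6 and 25.4 CPM in wild type with both cytokines and 72.1, 34.0 and 27.9 CPM in GM-CSF-treated cells labelled Irf5-/-. Trib3, a target of ATF4 signalling, was at 24.8, 19.4 and 57.6 CPM and at 75.6, 92.4 and 23.6 CPM in untreated Csf2ra-/- cells and in wild type with both cytokines. In each, the library high for P4ha2 was high for both genes. Of 12 stress genes tested, 1 was called in untreated Csf2ra-/- against wild type, Atf3 at -1.60 (edgeR adjusted p = 0.000721), and the median was -0.38. Their part in the member differences was not tested.

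Markers of other cell types also differed in the comparison in which members were called. In untreated Csf2ra-/- against wild type edgeR called 9 of 14 monocyte and macrophage markers lower (median log2 fold change -2.01), 4 of 11 neutrophil markers lower (-0.58), 2 of 5 tested dendritic markers lower (-1.29) and both tested erythroid markers higher (1.97). Of 10 eosinophil markers 1 was higher and 1 lower, of 7 tested mast cell and basophil markers 1 was higher, and of 5 tested stromal markers none was called. Of all tested genes 5.32% were called lower and 5.52% higher there. With GM-CSF in both genotypes 3 of 14, 3 of 11 and 2 of 5 were lower in the first 3 lists. In the same comparison 1 of 2 tested erythroid, 1 of 5 tested stromal and 1 of 10 eosinophil markers were higher. Of all 11885 tested genes 343 were lower and 108 higher there. For the untreated cells labelled Irf5-/- none of these markers was called, 7 of the 14 monocyte and macrophage markers having an unadjusted p under 0.05. The summed level of those 14, to which abundant genes add most, ranged from 2098 to 2846.5 CPM over all libraries. In wild type it ran with the members in some groups and against them in others. The library with the lowest members had the highest sum with GM-CSF (replicate 2, 2721 CPM) and with both cytokines (replicate 3, 2658 CPM). That library had the lowest sum in untreated cells (replicate 1, 2645 CPM) and with IL-10 (replicate 3, 2695 CPM). The 3 C1q genes are low-level members of that list and were chosen after their values were seen. In wild type they ran with the members, which the sum of the 14 did not in every group, so they do not stand for the list. The C1q genes summed to 8.10, 19.2 and 17.3 CPM in untreated wild type and to 4.63, 2.14 and 17.7 CPM with GM-CSF. With IL-10 the sums were 32.8, 29.9 and 12.8 CPM, and with both cytokines 7.398, 22.6 and 3.88 CPM. In untreated Csf2ra-/- cells they summed to 2.10, 1.06 and 0.946 CPM, replicate 3 having the least, and with GM-CSF to 1.67, 1.05 and 1.33 CPM. The sum of 10 eosinophil markers was 108803, 80002 and 84676 CPM in untreated Csf2ra-/- replicates 1 to 3 and 72295 to 77345 CPM in untreated wild type. The sum of 11 neutrophil markers was 1336 to 1653 CPM in untreated Csf2ra-/- and 1704 to 1964 CPM in untreated wild type, and that of 6 erythroid markers was 58.3 to 120.7 and 18.25 to 28.1 CPM, with Hba-a2 at 0 in every library. The part of these cells in the member differences was not tested.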

How the data were processed

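RNA of bone-marrow-derived eosinophils was sequenced in 24 stranded, polyA-selected libraries, per the labels' protocols. The deposited files hold whole-number read counts per gene for 25746 genes, which the authors made by aligning to GRCm38.p6 with STAR and counting with featureCounts, per the submitters' processing notes. The sources used here give neither the strand setting nor the treatment of reads with several matches, so genes with near-identical copies or antisense partners are uncertain. Symbols and exon lengths came from GENCODE vM21 (GRCm38), and 34 genes, with 0.0189% of the counts, had no symbol.

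Counts were fitted in edgeR 4.0.16 (R 4.3.3) with filterByExpr, TMM factors (0.939 to 1.03), 8 group means and the robust quasi-likelihood F-test on 16 residual degrees of freedom. The biological coefficient of variation was 14.1%. P-values were BH-adjusted over all 11885 tested genes, and a gene was called at an adjusted p under 0.05. All groups entered 1 fit so that they share the estimate of spread. Levels are TMM-scaled CPM, and log2 values for spread and deviations used a prior count of 2. Libraries were grouped by the labels, with totals of 6222979 to 18709153 counts. Alternatives were DESeq2 1.42.0, limma-voom 3.58.1, other scaling and filters, fits of only the groups compared, a Y-linked covariate and leaving out each library. The edgeR fit was tested on simulated data for untreated Csf2ra-/- against wild type only, and DESeq2 and limma-voom were not. The members and lists were chosen with earlier results of these data known. Genes named are the members, the oxygen sensors and HIF subunits, and up to 4 called genes of each other list and comparison, smallest adjusted p first. Ndufa1, Ddit3, Trib3 and the C1q genes were given by sample after their values were seen. Promoter sequences are from RefSeq (GRCm38.p6). Protein sequences were not used here.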

Additional observations from a re-analysis of the deposited data

How the results depend on the processing

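In untreated Csf2ra-/- against wild type the number of members called, 6 by edgeR, was 8 with DESeq2, 6 with limma-voom, 5 with RLE scaling and 4 with no filter. It was 1 with the Y-linked covariate, 0 with only the groups compared, 0 without the 2 shallowest libraries (chosen after seeing the data), and 0 to 15 when 1 library was left out. Fewer samples entered the last 3 of these fits; the cause of the change was not tested otherwise. Members below 0 numbered 31 to 33 under every one of these settings. For Csf2ra-/- against wild type with GM-CSF the count of 0 became 0 to 2 when 1 library was left out. For the untreated cells labelled Irf5-/- the count of 0 became 16 with only the groups compared, which gives those 6 libraries their own estimate of spread. In the other 10 tests 0 members were called under every alternative run. Over 7280 values of single members under alternatives, 7205 stayed on their side of the threshold, 43 lost the call and 32 gained it. The sign changed in 514 of them, none called under either setting, and leaving out 1 library turned the sign of the members' median in 6 of the 13 tests. No paired analysis was made because the labels pair no libraries across groups, replicate numbers having been given in accession order. In the libraries labelled Irf5-/- the Y-linked sums were alike by replicate number with and without GM-CSF. Whether such libraries share a source is not in the labels and was not tested. With 3 libraries a group, the spread of members such as P4ha2 limits what could be called.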
